A study of Mus musculus with 14 samples.

Results

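Genes that set the passage from G1 into S phase were followed in transferred CD8+ T cells of the mouse. The members were matched by symbol, from a list chosen with earlier results of these data known. They are the E2F factors E2f1, E2f2 and E2f8, the E-type cyclins Ccne1 and Ccne2, the D-type cyclins Ccnd2 and Ccnd3, the kinase Cdk4 and the inhibitors Cdkn1a and Cdkn1b. Of these 10 symbols, 9 matched a row among the 10106 genes of the expression table, and Cdkn1a was not analysed here. All 9 passed the filter on low values (a mean of at least 1 RPKM over the 14 libraries, which 9793 genes passed). E2f8 and Ccne2 passed it through the antigen groups, because both were under 1 RPKM in all 3 Naive libraries.

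Donor cells were OT-I CD8+ T cells from the spleens of OTI mice, whose transgenic receptor recognizes SIINFEKL, a peptide of ovalbumin, on MHC class I. They were marked with the dye CFSE and injected by vein on day 0 into CD45.2+ C57BL/6 recipients, with an age of 8 to 12 weeks given for every sample, so every group, Naive included, holds transferred cells in the same kind of host with its own T cells still present. Antigen followed by vein on day 1, at 223 pmol: whole ovalbumin (OVA, 3 libraries), ovalbumin targeted to erythrocytes through ERY1, a peptide that binds them (ERY1-OVA, 3 libraries), free peptide (SIINFEKL, 2 libraries) or the peptide targeted to erythrocytes through TER119, the name of an antibody clone against erythrocytes (TER119-SIINFEKL, 3 libraries). Naive mice (3 libraries) received saline and give the background of resting cells. Spleens were taken on day 4, and viable CD3e+ CD8+ CD45.1+ cells were sorted for polyadenylated RNA. The design text counts the samples as mice, with no further label tying a library to an animal, so the p-values measure the spread between these libraries. A receptor shared by all cells and a fixed antigen make this a model of 1 clone of T cells, and only 1 time was sampled.

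A resting T cell is held before S phase by the retinoblastoma family of pocket proteins, which bind E2F factors. After stimulation, D-type cyclins with CDK4 and CDK6 begin to phosphorylate the pocket proteins, and E-type cyclins with CDK2 complete the step, so that E2F1, E2F2 and E2F3 activate the genes of DNA replication. E2F7 and E2F8 are atypical repressors that are themselves E2F targets and damp the same genes late in the cycle, while the CIP/KIP inhibitor p27, encoded by Cdkn1b, holds CDK2 complexes inactive in quiescent lymphocytes. Cyclin D2 and cyclin D3 are the main D-type cyclins of T cells.

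Levels below are RPKM (reads scaled by gene length and library size) and differences are on the log2 scale with the standard error (SE) of limma; a gene is said to have risen or fallen only where the Benjamini-Hochberg adjusted p over all 9793 genes was under 0.05. The depth of each library is unknown. CD8 T cell transcripts (5 of 6 listed markers measured) summed to 1779 to 3028 RPKM in every library, whereas Cd4 lay between 0.18 and 1.31 RPKM. Zbtb7b, the other measured gene of the CD4 T cell list (2 of 3), was at 9.93 RPKM in SIINFEKL replicate 1 and at 0.76 to 1.48 RPKM in every other library. Of markers of other cells, 2 of 6 B cell genes summed to 8.49 to 10.3 RPKM in Naive and to 12.8 to 27.5 RPKM in the antigen groups. Cd22 of that list was at 0.32 to 0.43 RPKM in Naive and at 3.57 to 12.4 RPKM in the antigen groups. In all libraries, 7 of 10 myeloid and dendritic genes summed to 27.02 to 98.4 RPKM, and 2 of 3 NK genes to 3.49 to 16.3 RPKM. The tops of these ranges were single libraries, OVA replicate 1 and TER119-SIINFEKL replicate 1. Cd74 was at 34.4 RPKM in OVA replicate 1, against 9.17 and 5.87 in OVA replicates 2 and 3. Klrb1c was at 14.7 RPKM in TER119-SIINFEKL replicate 1, against 4.72 and 6.75 in replicates 2 and 3 of that group. Pecam1, the 1 measured gene of 6 for stroma and endothelium, was at 48.2 and 65.7 RPKM after SIINFEKL and at 20.9 to 42.8 RPKM in the other groups. The 3 of 7 erythroid genes measured summed to 49.3 to 76.9 RPKM after TER119-SIINFEKL, 36.0 to 46.1 after OVA, 30.0 to 42.7 after ERY1-OVA, 21.4 to 33.8 in Naive and 18.0 to 19.6 after SIINFEKL, highest in the group given TER119-SIINFEKL and lowest in the group given free peptide. Tfrc, the transferrin receptor that dividing T cells also carry, was the largest of these genes in every library. It was at 46.7 to 56.6 RPKM after TER119-SIINFEKL and at 17.3 and 16.5 after SIINFEKL. The haemoglobin chains Hba-a1 and Hba-a2 stayed at or under 9.08 and 11.2 RPKM and did not follow the order of the sums. Hba-a1 was at 3.77 to 4.90 RPKM in Naive, 9.08, 1.18 and 0.70 after TER119-SIINFEKL, and 1.06 and 0.64 after SIINFEKL. The part of these markers in the results was not tested. The pair of SIINFEKL libraries differed from each other more than the libraries of any other group did, with a pooled SD over genes of 0.42 on the log2 scale against 0.23 to 0.26. Deviations from the group mean also followed gene length, with rank correlations across genes from -0.47 (OVA replicate 1) and -0.46 (TER119-SIINFEKL replicate 1) to 0.45 (OVA replicate 3) and 0.50 (TER119-SIINFEKL replicate 2). Deviations within a group sum to 0, so opposite signs go together.

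The members are spread over 6 chromosomes. In the GENCODE annotation of GRCm38, E2f1 lies at chr2:154559407-154569892 on the minus strand, E2f2 at chr4:136172394-136196057 on the plus strand and E2f8 at chr7:48866429-48881596 on the minus strand. Ccne1 lies at chr7:38097984-38107534 (minus), Ccne2 at chr4:11191351-11204779 (plus), Ccnd2 at chr6:127125162-127152193 (minus) and Ccnd3 at chr17:47505051-47599691 (plus). Cdk4 lies at chr10:127063534-127067920 (plus) and Cdkn1b at chr6:134920401-134925513 (plus), on the same chromosome as Ccnd2. Values are per whole gene, so exons, UTRs and isoforms cannot be separated.

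Promoter sequence is shown for 3 members that moved in opposite directions: E2f8 and E2f2, which had the widest range of levels among the E2F members, and Cdkn1b, the inhibitor. RefSeq (GRCm38.p6) lists promoters for 7 of the 9 members, and the 250 bases upstream of the annotated start are printed on the gene's strand, with matches to the searched words in capitals. The words were the CHR element TTTGAA, which is bound by the MuvB core of the DREAM complex, the CCAAT box CCAAT of the factor NF-Y, the FOXO word GTAAACA and the E2F words TTTCCCGC, TTTCGCGC, TTTGCCGC and TTTGGCGC, each on both strands. In the printed windows no matches overlap.
E2f8, chr7:48881597-48881846, minus strand: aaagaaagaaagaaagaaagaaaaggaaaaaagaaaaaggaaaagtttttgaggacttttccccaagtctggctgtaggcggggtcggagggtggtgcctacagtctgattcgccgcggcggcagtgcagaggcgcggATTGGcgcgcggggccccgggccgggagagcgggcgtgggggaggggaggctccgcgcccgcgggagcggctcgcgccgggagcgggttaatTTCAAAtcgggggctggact
E2f2, first listed promoter, chr4:136172024-136172273, plus strand: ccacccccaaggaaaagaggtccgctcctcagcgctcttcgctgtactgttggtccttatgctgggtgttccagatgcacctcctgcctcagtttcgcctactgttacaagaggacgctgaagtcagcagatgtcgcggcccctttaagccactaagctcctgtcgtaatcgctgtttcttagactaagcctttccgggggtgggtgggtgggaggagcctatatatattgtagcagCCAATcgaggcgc
Cdkn1b, chr6:134920151-134920400, plus strand: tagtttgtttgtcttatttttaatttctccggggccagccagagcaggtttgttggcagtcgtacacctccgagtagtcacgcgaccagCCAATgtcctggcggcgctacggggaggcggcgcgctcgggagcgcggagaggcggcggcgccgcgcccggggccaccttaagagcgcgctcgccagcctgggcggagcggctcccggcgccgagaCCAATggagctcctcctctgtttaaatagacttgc

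The E2f8 window held a CHR word 20 to 15 bases and a CCAAT word 112 to 108 bases before the start, both read on the opposite strand. E2f2 had a CCAAT word 13 to 9 bases before the first listed start. Its second listed promoter, not printed, had a CHR word at 31 to 26 bases and CCAAT words at 174 to 170, 133 to 129 and 53 to 49 bases, and Cdkn1b had CCAAT words at 161 to 157 and at 35 to 31 bases. The FOXO word was matched in the first listed Ccnd3 promoter, 243 to 237 bases before the start, a CCAAT word in the second, 108 to 104 bases before its start, and the E2F words in none of the 9 promoters listed for members. The window listed for E2f1, chr2:154569427-154569676, lies inside the gene as annotated by GENCODE, so the bases before that gene were not searched. The second windows of E2f2 (chr4:136180532-136180781) and Ccnd3 (chr17:47593217-47593466) also lie inside their genes. Among 32851 RefSeq promoters of the same length, 15.99% held the CHR word, 33.85% CCAAT, 3.17% the FOXO word and 1.86% an E2F word (10.52%, 35.85%, 2.18% and 3.57% of the 9603 promoters of genes in the expression table). A match is a description of letters, and the absence of a match says only that these letters are not in this window.

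E2f1, the activator E2F most often studied in proliferation, rose after 3 of the 4 antigens. Its level was 1.88, 1.74 and 2.09 RPKM in the Naive libraries, 10.1, 12.1 and 11.2 after OVA, 9.35, 8.94 and 9.35 after ERY1-OVA, 7.23, 10.1 and 11.8 after TER119-SIINFEKL, and 2.95 and 1.77 after SIINFEKL. All 9 libraries of OVA, ERY1-OVA and TER119-SIINFEKL lay above every Naive and SIINFEKL library, TER119-SIINFEKL overlapped both OVA and ERY1-OVA, which did not overlap each other, and SIINFEKL overlapped Naive. On the log2 scale the difference from Naive was 2.55 ± 0.20 (SE, 3 against 3 libraries, adjusted p = 5.7e-07) for OVA, 2.28 ± 0.20 (adjusted p = 2e-06) for ERY1-OVA and 2.33 ± 0.20 (adjusted p = 1.4e-06) for TER119-SIINFEKL. For SIINFEKL it was 0.27 ± 0.22 (2 against 3 libraries, adjusted p = 0.44), with a 95% interval of -0.21 to 0.74. The bulk values do not tell fewer expressing cells from less RNA per cell, here or for any member below.

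E2f2, an activator with roles in T cell quiescence as well as division, was the 1 member that rose after every antigen. It stood at 1.36, 2.01 and 2.49 RPKM in Naive, 21.1, 29.1 and 31.4 after OVA, 30.5, 22.7 and 26.5 after ERY1-OVA, 14.7, 28.2 and 24.1 after TER119-SIINFEKL, and 24.3 and 6.26 after SIINFEKL. The higher SIINFEKL library lay within the range of the other antigens and the lower lay below all of them, though still above Naive. The differences from Naive were 3.82 ± 0.40 after OVA (adjusted p = 6.2e-06), 3.80 ± 0.40 after ERY1-OVA, 3.50 ± 0.40 after TER119-SIINFEKL and 2.70 ± 0.44 after SIINFEKL (adjusted p = 0.0016), on the log2 scale. With SIINFEKL replicate 1 or replicate 2 left out, the SIINFEKL value was 1.72 or 3.68, and it remained past the threshold both times.

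E2f8, the atypical repressor, had the lowest Naive level of the members and the widest change. Naive libraries held 0.101, 0.196 and 0.48 RPKM, against 14.9, 17.7 and 20.1 after OVA, 16.5, 12.9 and 12.7 after ERY1-OVA and 7.43, 16.2 and 14.1 after TER119-SIINFEKL. The SIINFEKL libraries gave 3.32 and 0.313 RPKM, 1 above all Naive libraries and 1 inside their range. The differences from Naive were 6.37 ± 0.68 (adjusted p = 8.3e-06), 6.04 ± 0.68 and 5.82 ± 0.68 on the log2 scale for OVA, ERY1-OVA and TER119-SIINFEKL. SIINFEKL differed by 2.27 ± 0.76, which did not pass (adjusted p = 0.058); it passed at 3.97 (adjusted p = 0.00043) without SIINFEKL replicate 2, at 2.86 (adjusted p = 0.038) without Naive replicate 3, at 2.09 (adjusted p = 0.041) with quantile normalization and at 2.28 (adjusted p = 0.048) corrected for length and GC, and was 0.56 without SIINFEKL replicate 1. Because the Naive level is near the floor of the table, the size depends on the prior: with 1 RPKM added before the logarithm, the OVA difference was 3.89 and the SIINFEKL difference 0.93.

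**Figure D1:**
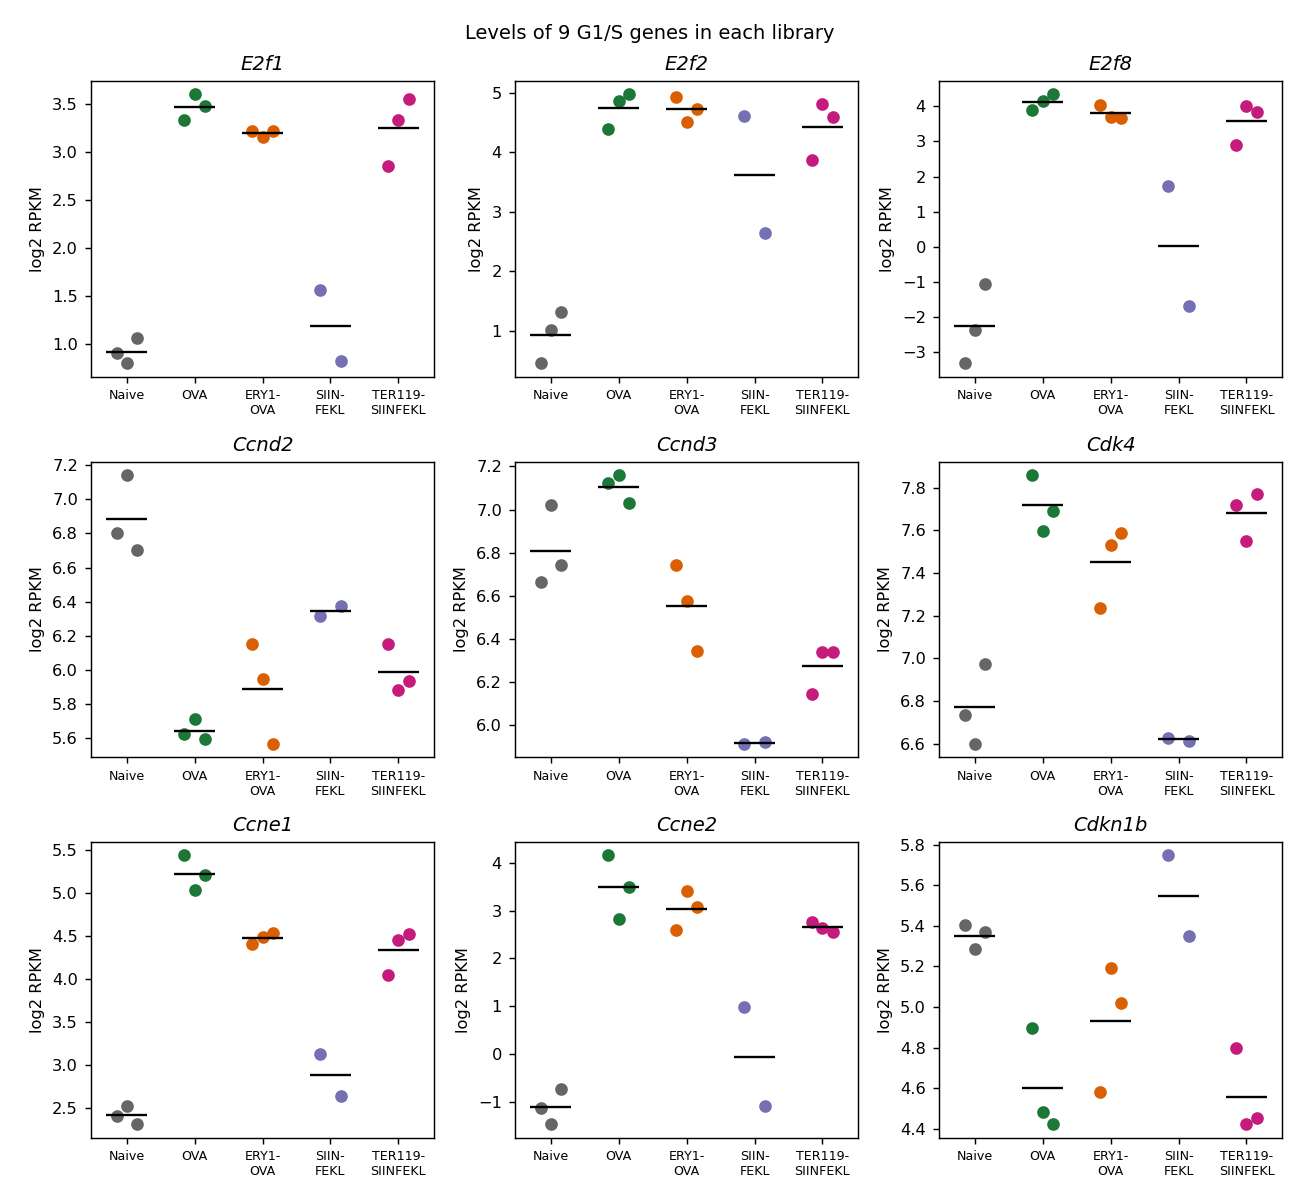
Level of each of the 9 G1/S genes in each of the 14 libraries (points, log2 RPKM on the vertical axis, which differs between panels; lines are group means). The OVA, ERY1-OVA and TER119-SIINFEKL points of E2f1, E2f8, Ccne1, Ccne2 and Cdk4 lie above all Naive and SIINFEKL points, and those of Ccnd2 lie below them.

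Ccne1, which encodes the cyclin E1 that activates CDK2 at the G1/S boundary, rose most after OVA. Naive libraries held 5.34, 5.76 and 4.98 RPKM and OVA libraries 43.5, 32.8 and 37.2 RPKM. ERY1-OVA gave 21.2, 22.5 and 23.3, TER119-SIINFEKL 16.6, 22.0 and 23.1, and SIINFEKL 8.80 and 6.27 RPKM. OVA thus stood alone at the top, ERY1-OVA and TER119-SIINFEKL shared the middle, and SIINFEKL lay just above Naive with no overlap. The log2 differences from Naive were 2.81 ± 0.16 (adjusted p = 6.6e-08), 2.06 ± 0.16 and 1.93 ± 0.16 in the order OVA, ERY1-OVA and TER119-SIINFEKL. After SIINFEKL the difference was 0.47 ± 0.17 (adjusted p = 0.081). The SIINFEKL difference passed at 0.72 (adjusted p = 0.017) without SIINFEKL replicate 2. It also passed without TER119-SIINFEKL replicate 1, which alters only the spread used by the fit (adjusted p = 0.049), and with quantile normalization (0.49, adjusted p = 0.046).

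Ccne2, the gene of the second E-type cyclin, was nearly silent in resting cells and rose in the same 3 groups. Its RPKM was 0.457, 0.362 and 0.606 in Naive, 17.8, 7.05 and 11.2 after OVA, 6.00, 10.6 and 8.47 after ERY1-OVA, 6.77, 6.19 and 5.87 after TER119-SIINFEKL, and 1.97 and 0.472 after SIINFEKL. ERY1-OVA overlapped both OVA and TER119-SIINFEKL, all OVA libraries lay above all TER119-SIINFEKL libraries, and SIINFEKL overlapped Naive. The log2 differences from Naive were 4.59 ± 0.44 (adjusted p = 3.1e-06), 4.13 ± 0.44 and 3.75 ± 0.44 in the order OVA, ERY1-OVA and TER119-SIINFEKL, and 3.06, 2.64 and 2.30 with 1 RPKM added. SIINFEKL differed by 1.05 ± 0.49 (adjusted p = 0.16) and passed without SIINFEKL replicate 2 alone (2.08, adjusted p = 0.0032). Cyclin E1 made up 89.1% to 94.1% of the summed E-type cyclin RPKM in Naive libraries and 67.9% to 82.3% in the libraries of OVA, ERY1-OVA and TER119-SIINFEKL, without overlap. SIINFEKL replicate 1 gave 81.7%, inside the range of those antigens, and replicate 2 gave 93.0%, inside the Naive range. The summed level went from 5.58 to 6.13 RPKM in Naive to 39.9 to 61.3 after OVA and 23.4 to 33.1 in the 2 erythrocyte-targeted groups.

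The D-type cyclins did not follow the E-type cyclins. Ccnd2 fell after all 4 antigens. Its level was 112, 141 and 104 RPKM in Naive, 49.4, 52.5 and 48.3 after OVA, 71.0, 61.6 and 47.4 after ERY1-OVA, 71.0, 58.9 and 61.3 after TER119-SIINFEKL, and 79.7 and 83.2 after SIINFEKL. Every antigen library lay below every Naive library, SIINFEKL next below Naive, and the OVA range fell within the range of ERY1-OVA. The log2 differences from Naive were -1.24 ± 0.15 (adjusted p = 2e-05), -0.995 ± 0.15, -0.89 ± 0.15 and -0.54 ± 0.16 (adjusted p = 0.041) for OVA, ERY1-OVA, TER119-SIINFEKL and SIINFEKL. The SIINFEKL call was lost in 8 of the 14 fits that left out a library, among them those without either SIINFEKL library (adjusted p = 0.25 and 0.068), without Naive replicate 1 or 2 (0.066 and 0.14) and without OVA replicate 2 or 3, ERY1-OVA replicate 2 or TER119-SIINFEKL replicate 3 (0.053 to 0.057), and without the mean-variance trend (0.054).

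Ccnd3, the other D-type cyclin gene of T cells, moved in a way that depended on the antigen. Naive libraries held 102, 130 and 107 RPKM, OVA libraries 139, 143 and 131, ERY1-OVA libraries 107, 95.2 and 81.3, TER119-SIINFEKL libraries 70.7, 81.0 and 81.0, and SIINFEKL libraries 60.3 and 60.6. OVA lay just above Naive, ERY1-OVA overlapped Naive from below, and the groups given peptide lay below both, SIINFEKL lowest. Ccnd3 fell after SIINFEKL (-0.89 ± 0.13 on the log2 scale, adjusted p = 0.00095) and after TER119-SIINFEKL (-0.54 ± 0.12, adjusted p = 0.0027). The differences of 0.29 ± 0.12 for OVA (adjusted p = 0.059) and -0.26 ± 0.12 for ERY1-OVA (adjusted p = 0.11) did not pass. When each library was corrected for the length and GC content of genes, the call after TER119-SIINFEKL was lost (-0.20, adjusted p = 0.16) and OVA passed (0.59, adjusted p = 0.0012), while SIINFEKL stayed at -0.92. OVA also passed with array weights (0.28, adjusted p = 0.016), with median-of-ratios rescaling (0.31, adjusted p = 0.048), without Naive replicate 2 (0.40, adjusted p = 0.024) and without ERY1-OVA replicate 1 or 3 (adjusted p = 0.046 and 0.045), and ERY1-OVA without its replicate 1 (-0.35, adjusted p = 0.044) and with quantile normalization (-0.40, adjusted p = 0.027).

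Cdk4, the kinase partner of the D-type cyclins, rose in the 3 groups in which E2f1 rose. Its RPKM was 107, 97.0 and 126 in Naive, 232, 194 and 207 after OVA, 151, 185 and 192 after ERY1-OVA, 210, 188 and 218 after TER119-SIINFEKL, and 99.0 and 97.8 after SIINFEKL. SIINFEKL lay inside the Naive range, and every library of the other antigens lay above both. The log2 differences from Naive were 0.95 ± 0.13 (adjusted p = 5.7e-05), 0.68 ± 0.13 (adjusted p = 0.00092) and 0.91 ± 0.13 (adjusted p = 7.1e-05) for OVA, ERY1-OVA and TER119-SIINFEKL. For SIINFEKL the difference was -0.15 ± 0.14, with a 95% interval of -0.45 to 0.15. How reads shared with near-identical copies were assigned is not given in the sources used here.

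Cdkn1b, which encodes p27, went the other way. Naive libraries held 42.3, 39.0 and 41.3 RPKM, OVA libraries 29.7, 22.3 and 21.4, TER119-SIINFEKL libraries 27.8, 21.4 and 21.9, ERY1-OVA libraries 24.0, 36.5 and 32.4, and SIINFEKL libraries 53.7 and 40.7. All libraries of OVA, TER119-SIINFEKL and ERY1-OVA lay below Naive, and SIINFEKL overlapped Naive from above. Cdkn1b fell by 0.75 ± 0.17 on the log2 scale after OVA (adjusted p = 0.0033) and by 0.79 ± 0.17 after TER119-SIINFEKL (adjusted p = 0.0022). The ERY1-OVA difference of -0.42 ± 0.17 did not pass (adjusted p = 0.068), although it did with the length and GC correction (-0.50, adjusted p = 0.014), with quantile normalization (-0.52, adjusted p = 0.031) and in a fit of these 2 groups alone (adjusted p = 0.042). It also passed without ERY1-OVA replicate 2 (-0.55, adjusted p = 0.039) and without OVA replicate 1 (adjusted p = 0.049). SIINFEKL differed by 0.20 ± 0.19 (adjusted p = 0.53). Loss of p27 during the cycle is known to run largely through protein turnover, which these RNA values do not measure.

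Counted over the members, 6 of 9 were higher and 2 lower than Naive after OVA, where 24.4% of all 9793 genes were called higher and 23.1% lower. After ERY1-OVA 6 were higher and 1 lower (20.9% and 19% of all genes), and after TER119-SIINFEKL 6 were higher and 3 lower (24.6% and 23%). After SIINFEKL 1 was higher, E2f2, and 2 were lower, the D-type cyclin genes (7.58% and 8.34%). The median difference of the 9 members was 2.55, 2.06, 1.93 and 0.27 on the log2 scale for OVA, ERY1-OVA, TER119-SIINFEKL and SIINFEKL, beside medians over all genes of -0.04, -0.01, -0.0013 and -0.01. These 4 comparisons share the 3 Naive libraries, so that an odd Naive library would move all of them together. The members were chosen with earlier results of these data known, so counts of members, here and below, are not independent evidence.

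**Figure D2:**
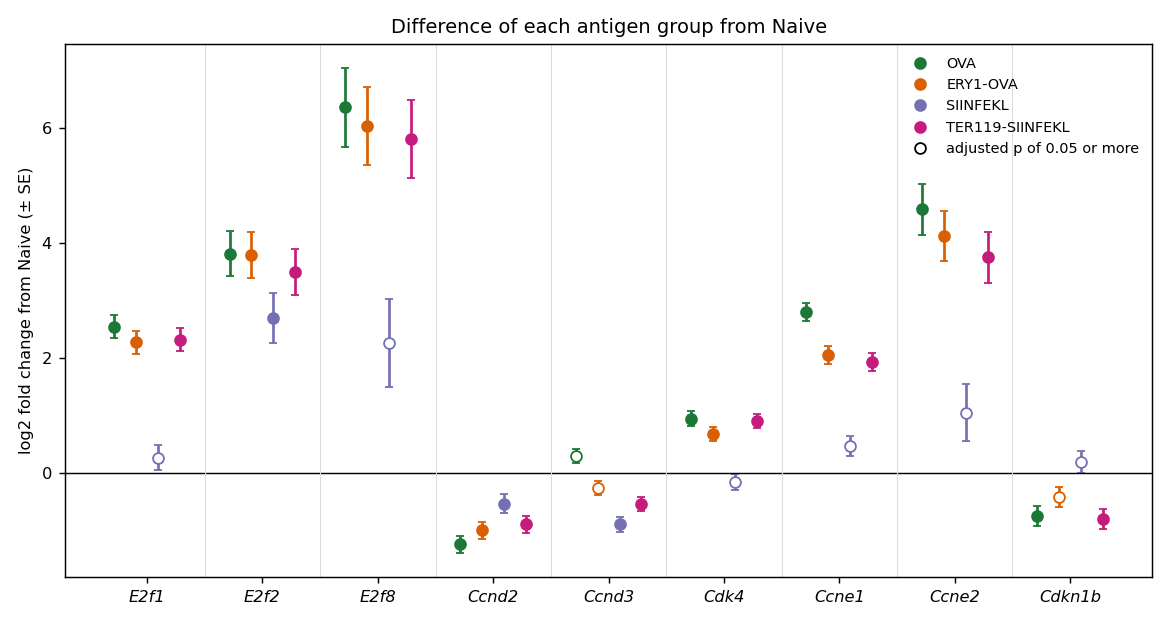
Difference of each antigen group from Naive for the 9 members (points, log2 fold change on the vertical axis; bars are ± 1 SE from limma; open points have an adjusted p of 0.05 or more). SIINFEKL is open for all members other than E2f2, Ccnd2 and Ccnd3, and E2f8 has the highest points, 6.37 after OVA.

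Ratios of members within a library do not depend on a single scaling factor per library, but they do depend on deviations that follow gene length or GC content. The length and GC correction moved the Ccnd3 difference from Naive from 0.29 to 0.59 after OVA. After TER119-SIINFEKL it moved that difference from -0.54 to -0.20. The ratios below are from uncorrected values. Cyclin D3 made up 47.6%, 47.9% and 50.7% of the summed RPKM of the D-type cyclins in the Naive libraries, 73.8%, 73.2% and 73.0% after OVA, and 60.1%, 60.7% and 63.1% after ERY1-OVA. TER119-SIINFEKL gave 49.9%, 57.9% and 56.9%, and SIINFEKL 43.0% and 42.2%. OVA, ERY1-OVA and SIINFEKL each occupied a range of their own, and TER119-SIINFEKL overlapped Naive through its replicate 1. The log2 ratio of Ccnd3 to Ccnd2 was higher than in Naive by 1.53 after OVA and by 0.74 after ERY1-OVA, and lower after ERY1-OVA than after OVA by 0.79 (exact permutation test, two-sided, p = 0.1 each time, the smallest that 3 against 3 libraries can give). The sum of both genes was 211 to 271 RPKM in Naive, 179 to 196 after OVA, 129 to 178 after ERY1-OVA, and 139.9 to 144 in the peptide groups together.

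The balance of cyclin E1 over p27 spanned the widest range of the ratios computed. The log2 ratio of Ccne1 to Cdkn1b was -2.99, -2.76 and -3.05 in Naive, -2.61 and -2.70 after SIINFEKL, -0.17, -0.70 and -0.48 after ERY1-OVA, -0.75, 0.04 and 0.08 after TER119-SIINFEKL, and 0.55, 0.55 and 0.79 after OVA. Only the OVA libraries and replicates 2 and 3 of TER119-SIINFEKL held more Ccne1 than Cdkn1b per length. OVA lay above ERY1-OVA by 1.08 with no overlap (exact permutation test, two-sided, p = 0.1, the smallest possible), and TER119-SIINFEKL above SIINFEKL by 2.44 (p = 0.2, the smallest that the exact permutation test can give with 3 against 2 libraries). The log2 ratio of E2f2 to E2f1 was -0.46, 0.20 and 0.25 in Naive, 1.06 to 1.49 after OVA, 1.35 to 1.71 after ERY1-OVA, 1.02 to 1.48 after TER119-SIINFEKL, and 3.04 and 1.82 after SIINFEKL. SIINFEKL libraries thus had the most E2f2 relative to E2f1, with 24 such ratio comparisons computed and none able to pass 0.05.

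**Figure D3:**
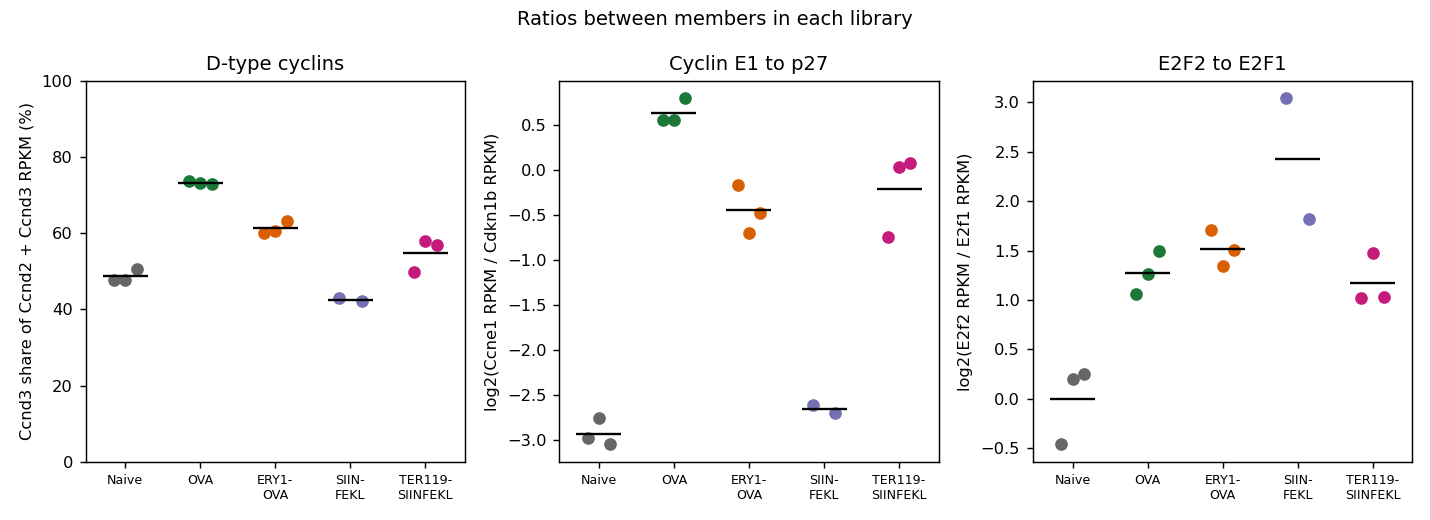
Ratios between members in each library (points; lines are group means): the share of Ccnd3 in the summed D-type cyclin RPKM in percent, and the log2 ratios of Ccne1 to Cdkn1b and of E2f2 to E2f1. OVA libraries are highest in the left and middle panels, at 73.0% to 73.8% and 0.55 to 0.79, and SIINFEKL libraries are lowest in the left panel and highest in the right panel.

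Of the 16 other genes of the E2F, DP, pocket protein and DREAM group, 9 rose and 1 fell after OVA, 9 rose and 1 fell after ERY1-OVA, 8 rose and 1 fell after TER119-SIINFEKL, and 2 rose and 2 fell after SIINFEKL (medians 0.47, 0.46, 0.40 and 0.06). The shares of all genes called against Naive, given above with the members, are the background for this and the following list counts. E2f7, the other atypical repressor, followed E2f8 with 4.87 ± 0.63, 4.82 ± 0.63 and 4.54 ± 0.63 after OVA, ERY1-OVA and TER119-SIINFEKL. Its Naive level of 0.09 to 0.15 RPKM was near the floor of the table, so these sizes depend on the prior. E2f3, the third activator, rose after all 4 antigens, by 1.21 ± 0.21, 1.10 ± 0.21, 0.95 ± 0.21 and, after SIINFEKL, 0.79 ± 0.24. The repressor E2Fs of resting cells moved less: E2f4 rose after OVA (0.50 ± 0.13), E2f5 fell after ERY1-OVA (-0.62 ± 0.21), and E2f6 fell after SIINFEKL (-0.47 ± 0.13). Tfdp1, which encodes the dimerization partner of E2F proteins, rose by 2.17 ± 0.15, 1.76 ± 0.15 and 1.95 ± 0.15, and Mybl2, the MuvB partner that follows E2F activity, by 5.53 ± 0.39, 4.86 ± 0.39 and 4.85 ± 0.39 (and 1.51 ± 0.44 after SIINFEKL). Mybl2 stood at 0.31 to 0.43 RPKM in Naive, so its sizes also depend on the prior.

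The pocket proteins divided among themselves. Rb1 rose by 0.72 ± 0.16, 0.89 ± 0.16 and 0.80 ± 0.16 and Rbl1, the gene of p107, by 0.63 ± 0.13, 0.77 ± 0.13 and 0.64 ± 0.13 after OVA, ERY1-OVA and TER119-SIINFEKL. Rbl2, the gene of p130, the pocket protein typical of quiescent cells, fell after OVA (-0.44 ± 0.11) and TER119-SIINFEKL (-0.33 ± 0.11) and gave -0.29 ± 0.11 after ERY1-OVA, which did not pass. After SIINFEKL the differences were 0.51 ± 0.18 for Rb1, 0.07 ± 0.14 for Rbl1 and -0.06 ± 0.12 for Rbl2, without a call.

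Among 12 measured cyclins, kinases and activators of 14 listed, 9 rose after each of OVA, ERY1-OVA and TER119-SIINFEKL, with medians of 0.91, 0.71 and 0.77, and 2 rose after SIINFEKL (median 0.27). Ccna2, the gene of the S phase cyclin A2, rose by 5.72 ± 0.45, 5.38 ± 0.45 and 5.23 ± 0.45, and by 2.03 ± 0.50 after SIINFEKL. Cdk2, the kinase of cyclins E and A, rose by 2.09 ± 0.15, 1.90 ± 0.15 and 1.77 ± 0.15, and the CDK subunits Cks1b and Cks2 rose in the same 3 groups (Cks1b 4.06 ± 0.35 and Cks2 2.81 ± 0.26 after OVA). Ccnh, of the CDK-activating kinase, rose by 0.79 ± 0.10, 0.81 ± 0.10 and 0.85 ± 0.10, and Ccnc by 0.45 ± 0.12, 0.54 ± 0.12 and 0.49 ± 0.12. Myc, which drives cell growth early after activation, was the 1 gene of this list that fell in any comparison with Naive. It was lower than Naive after OVA (-0.72 ± 0.21), ERY1-OVA (-0.72 ± 0.21) and SIINFEKL (-1.002 ± 0.23) and not called after TER119-SIINFEKL (-0.31 ± 0.21).

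CDK inhibitor genes did not move as a group: after OVA and TER119-SIINFEKL, Cdkn1b fell and Cdkn2c rose. The list of other CDK inhibitors and G1/S protein turnover also holds ubiquitin ligase genes, so its counts are not counts of inhibitors. Of its 16 measured genes (20 listed), 10 rose and 3 fell after OVA, 8 rose and 3 fell after ERY1-OVA, 9 rose and 3 fell after TER119-SIINFEKL, and 1 rose and 1 fell after SIINFEKL (medians 0.49, 0.34, 0.44 and 0.27). The SIINFEKL counts were near the shares of all genes, 7.58% higher and 8.34% lower. The INK4 inhibitor gene Cdkn2c rose by 2.52 ± 0.24, 2.49 ± 0.24 and 2.39 ± 0.24 after OVA, ERY1-OVA and TER119-SIINFEKL, opposite to Cdkn1b. Cdkn2d, another INK4 gene, rose slightly after OVA (0.29 ± 0.10), ERY1-OVA (0.43 ± 0.10) and SIINFEKL (0.37 ± 0.11). Skp2, the ubiquitin ligase subunit that marks p27 for degradation, rose by 2.42 ± 0.36, 1.86 ± 0.36 and 1.63 ± 0.36 after OVA, ERY1-OVA and TER119-SIINFEKL. It stood at 0.28 to 0.56 RPKM in Naive and at 1.26 to 3.16 RPKM in those groups, so its sizes depend on the prior. In the same groups rose Dtl (4.41 ± 0.44 after OVA), of the ligase that removes CDT1 and p21, and Fbxo5 (2.87 ± 0.24 after OVA), an inhibitor of the anaphase-promoting complex. The antiproliferative gene Btg1 fell after all 4 antigens, by 1.31 ± 0.13, 1.02 ± 0.13, 1.29 ± 0.13 and 0.48 ± 0.14 in the order OVA, ERY1-OVA, TER119-SIINFEKL and SIINFEKL.

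E2F target genes of S phase rose nearly throughout after OVA, ERY1-OVA and TER119-SIINFEKL, and few did after SIINFEKL. All 38 were measured. Of them 38 rose after OVA, 37 after ERY1-OVA and 37 after TER119-SIINFEKL, where 24.4%, 20.9% and 24.6% of all genes were called higher. The medians were 2.63, 2.38 and 2.37. After SIINFEKL 3 rose and 2 fell with a median of -0.04, near the shares of all genes (7.58% higher and 8.34% lower). Those SIINFEKL counts hang on single libraries: without SIINFEKL replicate 2, 14 rose and 2 fell, and without SIINFEKL replicate 1, 0 rose and 7 fell. Mcm5, of the replicative helicase, rose by 2.94 ± 0.15, 2.42 ± 0.15 and 2.59 ± 0.15, Rrm1, of ribonucleotide reductase, by 3.22 ± 0.16, 2.79 ± 0.16 and 2.81 ± 0.16, and Rfc5, of the clamp loader, by 2.27 ± 0.11, 1.93 ± 0.11 and 1.88 ± 0.11. After SIINFEKL these gave -0.31 ± 0.17, 0.08 ± 0.18 and -0.08 ± 0.13, without a call. The list was chosen with results of these data known, so its direction is not independent evidence.

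Targets of p53, the usual inducer of Cdkn1a, gave no common direction, and after OVA and TER119-SIINFEKL the counts in both directions were under the shares of all genes given above. Of 14 tested genes (15 measured, 18 listed), 1 rose and 3 fell after OVA, 4 rose and 3 fell after ERY1-OVA, and 2 rose and 2 fell after each of the peptide antigens (medians -0.17, -0.12, 0.16 for SIINFEKL and -0.07 for TER119-SIINFEKL). Bbc3, the gene of the pro-apoptotic protein PUMA, fell after every antigen, by 1.52 ± 0.35, 1.94 ± 0.35, 2.46 ± 0.35 and, after SIINFEKL, 1.70 ± 0.39. Sesn2, a stress-response gene, rose after every antigen (0.78 ± 0.24, 0.96 ± 0.24, 1.09 ± 0.24 and 0.90 ± 0.27). Trp53inp1 fell after OVA (-0.37 ± 0.12) and rose after ERY1-OVA (0.34 ± 0.12) and SIINFEKL (0.68 ± 0.14), and Aen, a nuclease gene, fell after ERY1-OVA (-0.68 ± 0.14) and SIINFEKL (-0.62 ± 0.16). Ccng1, the cyclin G1 gene, rose after ERY1-OVA (0.38 ± 0.11) and TER119-SIINFEKL (0.29 ± 0.11).

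FOXO factors activate Cdkn1b and, with KLF2, the homing and survival genes of quiescent T cells. Of the 14 genes of this axis, 9 fell after OVA, 8 fell and 1 rose after ERY1-OVA, 9 fell and 1 rose after TER119-SIINFEKL, and 4 fell and 1 rose after SIINFEKL (medians -0.75, -0.60, -0.97 and -0.20). The IL-7 receptor gene Il7r fell by 1.96 ± 0.21, 2.64 ± 0.21, 3.52 ± 0.21 and, after SIINFEKL, 1.82 ± 0.23, and Klf2 by 1.03 ± 0.14, 1.44 ± 0.14, 1.92 ± 0.14 and 0.99 ± 0.16. Both thus passed after SIINFEKL, where Cdkn1b did not. S1pr1, the receptor for exit from lymphoid tissue, fell by 1.16 ± 0.11, 1.04 ± 0.11 and 1.64 ± 0.11 after OVA, ERY1-OVA and TER119-SIINFEKL, and Txnip fell after all 4 antigens (-0.63 ± 0.18 after SIINFEKL). Ccng2, a FOXO target that encodes cyclin G2, rose after ERY1-OVA (0.60 ± 0.12), TER119-SIINFEKL (0.38 ± 0.12) and SIINFEKL (0.60 ± 0.13).

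Some of these calls were lost when a library was left out. After SIINFEKL, the calls of E2f3, E2f6, Mybl2, Ccna2, Myc, Cdkn2d, Btg1, Bbc3, Sesn2, Aen, Trp53inp1, Txnip and Ccng2 were lost without SIINFEKL replicate 1, most of them also without a Naive library, whereas those of Il7r and Klf2 remained in all 14 fits. Without it, the change shrank from 2.03 to 0.71 for Ccna2, from 1.51 to 0.55 for Mybl2, from -1.70 to -0.84 for Bbc3 and from -0.62 to -0.32 for Aen, but stayed at 0.38 for Cdkn2d, 0.65 for Trp53inp1 and 0.64 for E2f3 (0.37, 0.68 and 0.79 with all libraries). The others gave -0.34 for E2f6, -0.67 for Myc, -0.32 for Btg1, 0.64 for Sesn2, -0.46 for Txnip and 0.48 for Ccng2. The E2F, DP, pocket and DREAM genes that rose then numbered 0 without SIINFEKL replicate 1 and 4 without replicate 2, the cyclins and kinases 1 and 5, the inhibitor and turnover genes 0 and 4, and the p53 targets 0 and 4. The FOXO and KLF2 axis genes that fell numbered 2 and 5. In the other groups, without Naive replicate 3 the calls of Ccng1, E2f5, Myc and Trp53inp1 after ERY1-OVA, of Sesn2 after OVA and of Ccng1 and Ccng2 after TER119-SIINFEKL were lost. Ccng1 after TER119-SIINFEKL was also lost without Naive replicate 1 or 2, OVA replicate 3, or TER119-SIINFEKL replicate 1 (0.19) or 3. Trp53inp1 after OVA was lost without Naive replicate 1 or 2. Leaving out an OVA library (replicate 1 or 2) ended the calls of Cdkn2d and Trp53inp1 after OVA, leaving out ERY1-OVA replicate 1 or 2 ended those of E2f5, Myc and Trp53inp1 after ERY1-OVA, and Rbl2 after TER119-SIINFEKL was lost without Naive replicate 1 or 2 or TER119-SIINFEKL replicate 2 or 3.

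**Figure D4:**
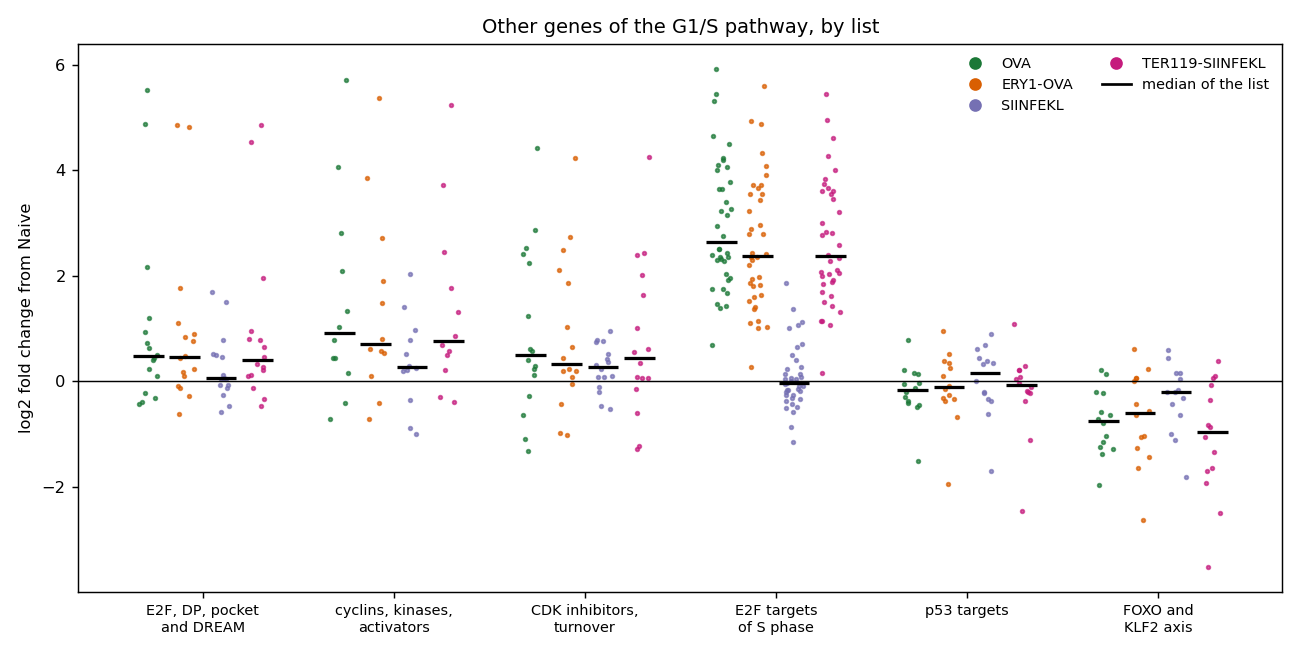
Difference from Naive (log2 fold change, vertical axis) of each tested gene (points) of 6 lists of G1/S pathway genes, by antigen, with the list median as a line. E2F targets of S phase stand at medians of 2.63, 2.38 and 2.37 after OVA, ERY1-OVA and TER119-SIINFEKL and at -0.04 after SIINFEKL.

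The genes closest to each member were found by the root mean square difference of log2 values centred on the gene, over the 14 libraries. For E2f1 they were Brca2 (0.17), Smc2 (0.20) and Atad5 (0.21), and for E2f8 the kinesin genes Kif2c (0.35), Kif4 (0.38) and Kif14 (0.38). E2f2 was closest to Anxa2 (0.38), Whsc1 (0.45) and Foxm1 (0.46), Ccne1 to Chaf1b (0.26), Rnaseh2b (0.26) and Dut (0.27), and Ccne2 to Tyms (0.25), Aurka (0.31) and C330027C09Rik (0.35). Ccnd2 was closest to Acadsb, Ccpg1 and Gm20510 (0.17 each), and Ccnd3 to Ddx20 (0.20), Tmem109 (0.20) and F2rl3 (0.21). Cdk4 was closest to Nutf2-ps1 (0.11), Txnl1 (0.11) and Pycrl (0.12), and Cdkn1b to Zfp952, Zfp949 (0.15 each) and B4galt7 (0.15). These distances describe likeness over libraries that share groups.

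Between ovalbumin with and without the erythrocyte binder, Ccne1 and Ccnd3 were the members called, both lower with it. Against OVA, ERY1-OVA was lower in 2 of 9 members and higher in 0 by limma (also 2 and 0 at an unadjusted p under 0.05), where 0.654% of all genes were called lower and 0.408% higher. Ccne1 was lower by 0.75 ± 0.16 on the log2 scale (95% interval -1.09 to -0.42, adjusted p = 0.038) and Ccnd3 by 0.55 ± 0.12 (95% interval -0.81 to -0.29, adjusted p = 0.046), each with no overlap of libraries. The libraries of E2f1 and Cdk4 did not overlap either, but limma called neither (adjusted p = 0.53 and 0.3). How many of all genes had no overlap was not counted, so the lack of overlap is a description only. Both calls are near the threshold: the Ccne1 call was lost in 11 and the Ccnd3 call in 10 of the 14 fits that left out 1 library, with adjusted p up to 0.15 and 0.16, and both were lost without the mean-variance trend (0.053 and 0.064) and with OVA replicate 1 and TER119-SIINFEKL replicate 1 both left out (0.084 and 0.097). The differences of the other members were -0.27 ± 0.20 for E2f1, -0.02 ± 0.40 for E2f2, -0.33 ± 0.68 for E2f8, -0.46 ± 0.44 for Ccne2, 0.24 ± 0.15 for Ccnd2, -0.27 ± 0.13 for Cdk4 and 0.33 ± 0.17 for Cdkn1b. The interval for E2f8 ran from -1.79 to 1.14 and that for Cdk4 from -0.54 to 0.01, so the data do not show that these levels were alike. Of the S phase E2F targets 0 of 38 were called by limma, with 15 lower and 0 higher at an unadjusted p under 0.05 and a median of -0.40, and Trp53inp1 was the 1 gene called in any of the 6 lists (0.71 ± 0.12). That call was lost without any 1 OVA library, ERY1-OVA replicate 1 or 2, or TER119-SIINFEKL replicate 3. With the length and GC correction 4 of the 38 targets were lower, with array weights 20, and without SIINFEKL replicate 1 or 2, which enters only through the spread, 2.

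Joining the peptide to an erythrocyte binder, in contrast, went with a change in most members. Against SIINFEKL, TER119-SIINFEKL was higher in 5 of 9 members and lower in 1, where 20.4% of all genes were called higher and 17% lower. E2f1 was higher by 2.06 ± 0.22 (adjusted p = 2.5e-05), E2f8 by 3.55 ± 0.76 (adjusted p = 0.0028), Ccne1 by 1.45 ± 0.17 (adjusted p = 5.6e-05), Ccne2 by 2.70 ± 0.49 (adjusted p = 0.00092) and Cdk4 by 1.06 ± 0.14 (adjusted p = 0.00012). Cdkn1b was lower by 0.99 ± 0.19 (adjusted p = 0.0016). E2f2 (0.80 ± 0.44, adjusted p = 0.17), Ccnd2 (-0.36 ± 0.16, adjusted p = 0.10) and Ccnd3 (0.36 ± 0.13, adjusted p = 0.052) did not pass. The SIINFEKL libraries decide some of these sizes: without replicate 1 or without replicate 2 the difference was 5.25 or 1.84 for E2f8, 3.73 or 1.67 for Ccne2 and 1.78 or -0.18 for E2f2, and E2f2 passed in the former case (adjusted p = 0.0028). Ccnd3 passed with the length and GC correction (0.71, adjusted p = 0.00096) and in 4 of the 14 fits with a library left out (without TER119-SIINFEKL replicate 1, ERY1-OVA replicate 1 or 3, or Naive replicate 2).

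Among the lists, TER119-SIINFEKL was higher than SIINFEKL in 38 of 38 E2F targets (median 2.47), 7 of 16 E2F, DP, pocket and DREAM genes, 7 of 12 cyclins and kinases, and 8 of 16 inhibitor and turnover genes, of which 5 were lower. In the FOXO and KLF2 axis 10 of 14 were lower. Soluble OVA differed from soluble SIINFEKL in much the same members: 6 of 9 were higher and 2 lower, where 22.4% of all genes were called higher and 19.9% lower. The differences were 2.28 ± 0.22 for E2f1 (adjusted p = 5.8e-06), 4.10 ± 0.76 for E2f8, 2.34 ± 0.17 for Ccne1 (adjusted p = 8.8e-07), 3.54 ± 0.49 for Ccne2, 1.19 ± 0.13 for Ccnd3 (adjusted p = 2.2e-05) and 1.10 ± 0.14 for Cdk4. Ccnd2 was lower by 0.70 ± 0.16 (adjusted p = 0.0041) and Cdkn1b by 0.95 ± 0.19 (adjusted p = 0.0017), and E2f2 gave 1.12 ± 0.44 (adjusted p = 0.056), or 0.14 without SIINFEKL replicate 2 and 2.10 (adjusted p = 0.00082) without replicate 1. It also passed without TER119-SIINFEKL replicate 1 (adjusted p = 0.047), with that library and OVA replicate 1 both left out (1.29, adjusted p = 0.046), corrected for length and GC (1.26, adjusted p = 0.027), with array weights (1.28, adjusted p = 0.031) and with 1 RPKM added (1.04, adjusted p = 0.048). Without SIINFEKL replicate 2 the E2f8 difference was 2.39. These comparisons with SIINFEKL share its 2 libraries.

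The 2 erythrocyte-targeted antigens showed no called difference in any member. Between ERY1-OVA and TER119-SIINFEKL limma called 0 of 9 members higher and 0 lower, where 0.0715% and 0.49% of all genes were called, and 1 member, Ccnd3, had an unadjusted p under 0.05 (0.28 ± 0.12, 95% interval 0.02 to 0.54). The intervals were -0.47 to 0.38 for E2f1, -0.55 to 1.15 for E2f2, -1.24 to 1.69 for E2f8, -0.20 to 0.47 for Ccne1 and -0.56 to 1.32 for Ccne2. They were -0.42 to 0.21 for Ccnd2, -0.50 to 0.04 for Cdk4 and -0.0007 to 0.75 for Cdkn1b. Among the lists S1pr1 was the 1 gene called (0.60 ± 0.11, higher after ERY1-OVA); in 8 of the 14 fits that left out 1 library (Naive replicate 1 or 3, OVA 2 or 3, ERY1-OVA 1 or 2, TER119-SIINFEKL 2 or 3) no gene of its list was called.

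**Figure D5:**
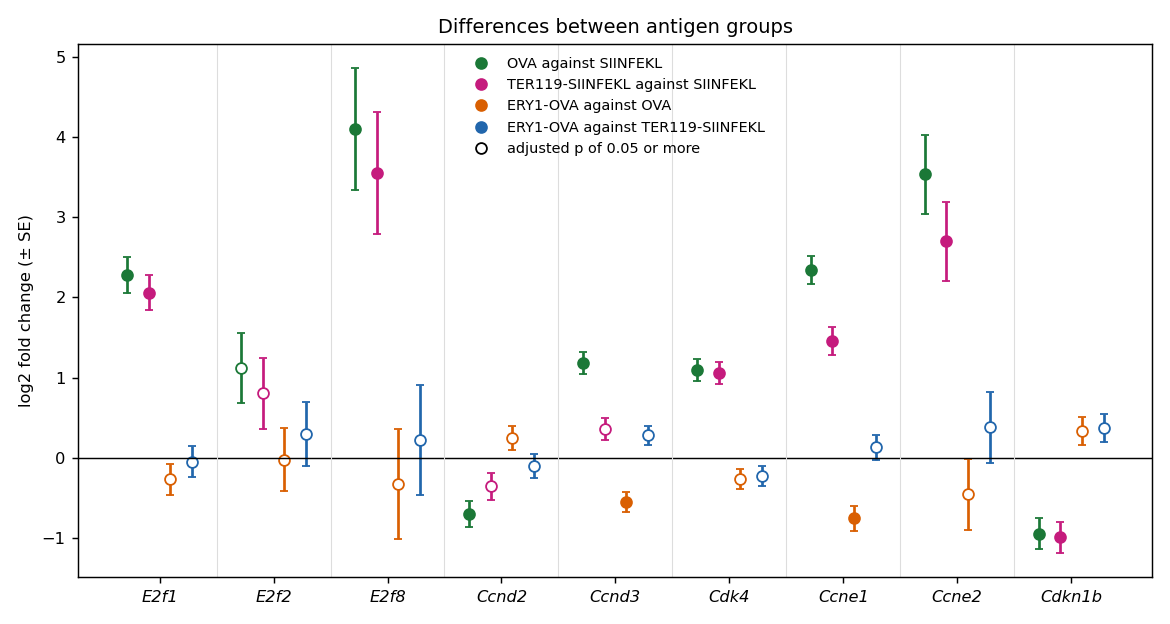
Differences between antigen groups for the 9 members (points, log2 fold change on the vertical axis; bars are ± 1 SE from limma; open points have an adjusted p of 0.05 or more). All points of ERY1-OVA against TER119-SIINFEKL are open, and those of ERY1-OVA against OVA are filled for Ccnd3 and Ccne1 alone.

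Whether targeting changed a member differently for protein and for peptide was tested as the difference of the effects, ERY1-OVA against OVA minus TER119-SIINFEKL against SIINFEKL. The protein was targeted through ERY1 and the peptide through TER119, so antigen form and binder cannot be told apart. The difference passed for 8 of 9 members, 6 lower and 2 higher, where 20.6% of all genes were called lower and 17.1% higher. The lower members were E2f1 (-2.33 ± 0.30, adjusted p = 9.6e-05), E2f8 (-3.87 ± 1.02, adjusted p = 0.0097), Ccne1 (-2.21 ± 0.23, adjusted p = 2.8e-05), Ccne2 (-3.16 ± 0.66, adjusted p = 0.0024), Ccnd3 (-0.91 ± 0.18, adjusted p = 0.0018) and Cdk4 (-1.33 ± 0.19, adjusted p = 0.0002). Cdkn1b was higher (1.32 ± 0.26, adjusted p = 0.0017), as was Ccnd2 (0.60 ± 0.22, adjusted p = 0.046). E2f2 gave -0.82 ± 0.59 (adjusted p = 0.29), and 0.15 or -1.80 (adjusted p = 0.0079) without SIINFEKL replicate 2 or 1. For E2f8 the value without SIINFEKL replicate 2 was -2.17 (adjusted p = 0.038). The Ccnd2 call was lost in 10 of the 14 fits with a library left out and with the length and GC correction (0.35, adjusted p = 0.21). In the lists, 38 of 38 E2F targets were lower (median -2.80) and 11 of 14 FOXO and KLF2 axis genes were higher in this difference, while Trp53inp1 (1.35 ± 0.18) was among 4 of 14 p53 targets that were higher.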

How the data were processed

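Polyadenylated RNA of sorted donor T cells was sequenced with a stranded kit in 14 libraries of 5 groups. The authors deposited 1 table of normalized expression for the whole series, and its values are log2 RPKM: 4.295% of them are below 0, down to -4.659, so the logarithm was already taken and no pseudocount was added here. STAR 2.4.2, bcl2fastq 2.17.1.14, edgeR, mm10 and GRCm38 appear in the submitters' processing notes, with no role given; gene lengths, prior count and strand setting are not given in the sources used here. Read counts could not be recovered, so the depth of each library is unknown and no counting interval is given.

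Columns were matched to samples by the names in the labels. The planned test on log2(RPKM + 1) was replaced by its stated fallback, limma 3.58.1 (R 4.3.3) on the deposited log2 values, with 1 mean per group over all 14 libraries, variances moderated with a trend on the mean level (degrees of freedom 9 residual, 4.63 prior), and Benjamini-Hochberg adjustment over the 9793 of 10106 genes with a mean of at least 1 RPKM (313 were removed). A gene was called at an adjusted p under 0.05. RPKM values were computed as powers of 2 of the deposited values, and ratios between members were compared by exact two-sided permutation tests. The fit was tested on simulated data first. Python 3.11.15 with numpy 2.4.6, pandas 2.3.3 and matplotlib 3.10.9 did the rest. Gene positions, lengths and GC content come from GENCODE M21, which matched 10027 genes, and promoters from RefSeq (GRCm38.p6).

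The members and lists were chosen with earlier results of these data known. All members with a row are named; of each list, genes of the E2F, CDK inhibitor and cyclin families, up to 4 genes with the smallest adjusted p against Naive and up to 3 a direction between antigens could be named, and for each member the 3 genes most alike. Rb1, Rbl1, Rbl2, Myc and Skp2 were named after their values were seen. A gene that the rule would name is not reported here. Alternatives were other normalizations, pseudocounts of 0.1 and 1, no filter or a filter at a mean of 3 RPKM, array weights, robust moderation, a replicate block, no trend, the compared groups alone, a fold change of at least 2, a length and GC correction (9716 genes) and each library left out. Array weights used the gene-by-gene method, chosen after the default one did not converge. Leaving out OVA replicate 1 and TER119-SIINFEKL replicate 1 together was chosen after seeing the data.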

Additional observations from a re-analysis of the deposited data

Results flagged for a closer look

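For 8 of the 9 members the effect of erythrocyte targeting differed between protein and peptide, by limma's test of the difference itself (ERY1-OVA against OVA minus TER119-SIINFEKL against SIINFEKL, log2 scale, adjusted over 9793 genes). Since the protein was targeted through ERY1 and the peptide through TER119, antigen form and binder cannot be told apart in it. Of all genes, 20.6% were called lower and 17.1% higher in this difference. The value was -2.33 ± 0.30 (SE, adjusted p = 9.6e-05) for E2f1 and -3.87 ± 1.02 (adjusted p = 0.0097) for E2f8. The E-type cyclin genes gave -2.21 ± 0.23 (adjusted p = 2.8e-05, Ccne1) and -3.16 ± 0.66 (adjusted p = 0.0024, Ccne2). For the D-type cyclins the value was 0.60 ± 0.22 (adjusted p = 0.046) for Ccnd2, a call lost in 10 of the 14 fits that left out a library, without the trend and corrected for length and GC, and -0.91 ± 0.18 (adjusted p = 0.0018) for Ccnd3. Cdk4 gave -1.33 ± 0.19 (adjusted p = 0.0002), and the inhibitor gene Cdkn1b gave 1.32 ± 0.26 (adjusted p = 0.0017). The peptide side rests on 2 SIINFEKL libraries, whose SD on the log2 scale was 2.41 for E2f8 and 1.46 for Ccne2, against 0.21 to 1.13 and 0.10 to 0.67 in the other groups.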

How the results depend on the processing

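Depth is unknown, and only 2 libraries carry the SIINFEKL group; where 1 of them was left out, the fit takes the spread of the remaining library from the other groups. Requiring a fold change of at least 2 left 1083 genes called for OVA, 1009 for ERY1-OVA, 516 for SIINFEKL and 1249 for TER119-SIINFEKL against Naive (4659, 3905, 1559 and 4657 without it). It left 11 for ERY1-OVA against OVA (104), 941 for TER119-SIINFEKL against SIINFEKL (3664), 16 for ERY1-OVA against TER119-SIINFEKL (55), 1097 for OVA against SIINFEKL (4135) and 1740 for the difference of targeting effects (3694). Members lower then numbered 1 for OVA against Naive and 0 in the other 6 pairwise comparisons that had any, and members higher in the difference of effects 1. For ERY1-OVA against Naive, 3 members were lower with quantile normalization and 2 with the compared groups alone, the length and GC correction or both OVA replicate 1 and TER119-SIINFEKL replicate 1 left out (below, both libraries) (1 to 2 with a library left out). For SIINFEKL against Naive, 3 members were higher with quantile normalization, 2 after correction for length and GC or both libraries left out, and 1 was lower with no trend, array weights or the compared groups alone. Array weights called 788 genes there and the compared groups alone 605. With a library left out the range was 363 (without SIINFEKL replicate 1) to 2438 genes (without replicate 2), 1 to 4 members higher and 1 to 2 lower.

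For ERY1-OVA against OVA, 66 genes were called with quantile normalization (60.6% of the calls higher, against 38.5%), 1745 with array weights, 330 corrected for length and GC and 13 without both libraries. Members lower were 1 with quantile normalization or the compared groups alone, and 0 with no trend or without both libraries, and 1 was higher with array weights. With a library left out 0 to 360 genes and 0 to 2 lower members were called. For TER119-SIINFEKL against SIINFEKL, 2 members were lower with quantile normalization, and 2131 genes were called in the compared groups alone. For ERY1-OVA against TER119-SIINFEKL the genes called were 29 with no trend, 1292 with array weights, 116 after correction for length and GC and 0 to 163 with a library left out, and 1 member, Cdkn1b, was higher with array weights. In the difference of effects 1 member was higher without the trend, without both libraries and under the correction for length and GC, and 1 to 2 with a library left out. The cause of these shifts was not tested.

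Replicate numbers did not pair the samples: deviations of same-numbered libraries correlated from -0.44 to 0.67, -0.44 to 0.32 and -0.08 to 0.38 for numbers 1, 2 and 3. With the replicate number as a block, ERY1-OVA against OVA had 69 genes called and 0 lower members (Ccne1 adjusted p = 0.059, Ccnd3 0.057), ERY1-OVA against TER119-SIINFEKL 32 genes, and the difference of effects 1 higher member.

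Signs turned only in differences that were not called in the main fit, though some of these passed in another fit. For TER119-SIINFEKL against Naive, Cdkn2d gave -0.081 with quantile normalization, -0.0016 with array weights and -0.064 with the correction for length and GC, and Trp53inp1 -0.11 and -0.0054 with the former 2. E2f2 in ERY1-OVA against OVA gave 0.0031 with quantile normalization. For ERY1-OVA against TER119-SIINFEKL, E2f8 and Ccne1 gave -0.080 and -0.0004 with array weights, and -0.12 and -0.015 without both libraries. With a library left out, SIINFEKL against Naive spanned -0.10 to 0.64 for E2f1, -0.0034 to 0.40 for Cdkn1b, -0.0049 to 0.087 for E2f4, -0.56 to 0.027 for E2f5, -0.074 to 0.21 for Rbl1, -0.14 to 0.012 for Rbl2, -0.0495 to 0.15 for Rbbp4, -0.056 to 1.08 for Skp2, -0.32 to 2.23 for Dtl, -0.65 to 0.019 for Mcm5, -0.30 to 0.13 for Rfc5 and -0.23 to 0.39 for Rrm1. TER119-SIINFEKL against Naive spanned -0.030 to 0.12 for Cdkn2d and -0.026 to 0.11 for Trp53inp1. E2f2 spanned -0.20 to 0.091 in ERY1-OVA against OVA, -0.18 to 1.78 in TER119-SIINFEKL against SIINFEKL and -1.80 to 0.15 in the difference of effects. ERY1-OVA against TER119-SIINFEKL spanned -0.23 to 0.058 for Ccnd2, -0.12 to 0.44 for E2f8, -0.015 to 0.23 for Ccne1 and -0.25 to 0.11 for E2f1.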
